A study of Drosophila melanogaster with 16 samples.

Results

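S2 cells, a hemocyte-like line derived from Drosophila melanogaster embryos, were examined for the RNAs that an inducible fusion of the RNA-binding protein FMR1 with the catalytic domain of ADAR (FMR1-ADARcd) had edited in the absence of any stress. The RNAs were those with 20 or more reads at their A-to-G sites in each of 4 bulk libraries, and 2703 of the 5003 genes in the deposited editing table met this condition, with 27852 sites among them. The 3 Schneider's libraries came from cells of 1 stable clone kept for 4 h with 1 mM copper sulfate, which drives the metallothionein promoter of the fusion, and then for 4 h in Schneider's medium without copper. The 1 uninduced library came from the same clone kept in Schneider's medium for both periods of 4 h, with no copper. All 4 libraries carried the transgene and none received arsenite. Copper and the fusion were therefore added together and cannot be told apart, and the uninduced condition has no replicate. The labels number the Schneider's libraries as replicates of one condition, so the spread between them may be partly technical.

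FMR1, the fly homologue of the human fragile X protein, binds many mRNAs and represses their translation. ADAR enzymes deaminate adenosine to inosine, which sequencing reads as guanosine, so that an ADAR domain tethered to an RNA-binding protein leaves A-to-G marks on the RNAs it meets. The catalytic domain alone lacks the double-stranded RNA-binding domains of ADAR and is known to prefer certain neighbours of the edited base. The marks stay on an RNA until it decays, so a level of editing depends on contact, on the time since induction and on the age of the RNA. The average editing frequency of an RNA, as the study defines it, is the mean over its A-to-G sites of the fraction of reads with G, and is given here in percent. Sites were called on the merged libraries of the series, stressed cells and brains included, so a site entered because some library carried the alternative base. The Schneider's libraries compared here thus helped to choose the sites, and most other labelled libraries were induced too.

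Reads over variable positions of Fmr1 and Adar, which the transgene shares with the endogenous genes, fitted the labels. Positions in Adar took 1811, 1919 and 1763 reads per 1000000 in the Schneider's libraries, against 463 in the uninduced library. Positions in Fmr1 took 1058, 1173 and 1150 reads per 1000000 in Schneider's, against 805 in the uninduced library. All 3 Schneider's libraries were above the uninduced one for both genes. At the A-to-G sites the Schneider's libraries held 458176, 407499 and 446621 reads and the uninduced library 401441, with a median of 9 or 10 reads per site. Hemocyte markers, of which 6 of 9 had called sites, took 3531 to 3715 reads per 1000000 at all sites in Schneider's and 3978 in uninduced cells, against 348 to 565 in the brain libraries, and neuron markers took 41.7 to 47.0 in Schneider's and 37.4 in uninduced cells.

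The level of editing was higher in every Schneider's library than in the uninduced one. The mean average editing frequency was 10.2%, 10.3% and 10.5% in the Schneider's replicates (10.4% ± 0.148, SD, n = 3), against 0.739% in the uninduced library. The median RNA stood at 9.04%, 9.02% and 9.38% in Schneider's and at 0 in uninduced cells. With every read weighted equally, 9.55%, 9.47% and 9.62% of the reads at these sites were edited in Schneider's, against 0.531% (95% exact binomial interval 0.508 to 0.555, counting error only) in the uninduced library, a ratio of 18.0. The Schneider's values lay within a narrow band far from the uninduced one, but an exact permutation test of 3 libraries against 1 cannot go below p = 0.5 (two-sided), so these totals are given without a test.

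**Figure D1:**
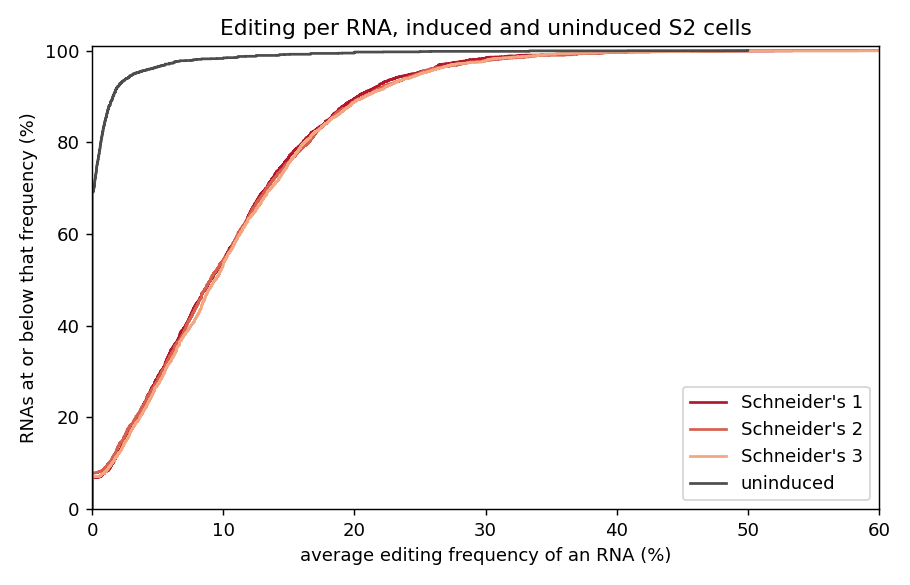
Cumulative distribution of the average editing frequency (x axis, percent) over the 2703 RNAs, with the share of RNAs at or below each frequency on the y axis, 1 line per library. The 3 Schneider's lines lie nearly on one another with medians of 9.04%, 9.02% and 9.38%, while 69.3% of RNAs had no edited read in the uninduced library.

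Every Schneider's replicate was above the uninduced library for 2302 RNAs (85.2%), where the same held for 69.8% of the 4077 genes tested over the whole table. In 9 RNAs every replicate was below it, and in 392 the libraries overlapped or were tied. The limma fit on the average editing frequencies, with p-values adjusted over all 4077 genes, called 0 of the 2703 RNAs (lowest adjusted p = 0.136), beside 0.0245% of all genes tested. At an unadjusted p under 0.01 the same fit gave 238 RNAs higher in Schneider's, beside 7.01% of all genes tested, and at one under 0.05 1002 RNAs, 1001 of them higher in Schneider's. A quasi-binomial model on edited and total reads called 1494 of the RNAs higher in Schneider's and 0 lower, or 56.4% of those tested, beside 38.4% of all genes tested. Its dispersion prior was restricted to well-edited genes after a test on simulated data, and with a prior from all genes it called 975. The simulated replicates differed by counting error only, so that test cannot show how the model does where replicates differ more. Fisher's exact test on pooled reads, added after the data were seen, called 1597 higher and 0 lower, beside 41.3%, but it treats reads as independent and covers counting error only. The number of called RNAs thus ran from 0 to 1597 with the test, whereas the levels and their order against the uninduced library did not rest on it. Sites were chosen partly by G in the induced libraries, so the direction of the calls and of the levels was partly set by that choice. How far it was set was not tested. Below, the adjusted p of the quasi-binomial model is named as such, and no RNA named passed the limma fit.

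Editing spread unevenly over the RNAs. The mean of the Schneider's replicates was under 1% for 120 RNAs, from 1% to 5% for 579, from 5% to 10% for 723, from 10% to 20% for 1034, from 20% to 30% for 217 and at 30% or more for 30. The RNAs in the tenth and ninetieth percentiles stood at 2.22% and 19.6%. The order of the RNAs was partly repeatable, with Spearman correlations across RNAs of 0.73 to 0.75 between pairs of replicates, given as a description since RNAs are not replicates. Of the 100 most edited RNAs in each replicate, among the 2201 with at least 3 sites and 100 reads, 21 were in the 100 of all 3 replicates. The 25 RNAs highest in replicate 1 averaged 35.7% there but 24.8% and 25.2% in replicates 2 and 3. The rank of a single RNA at the top was therefore less certain than its place in the upper range.

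The RNAs with the highest frequencies were mostly long and thinly covered. The rule took the 25 RNAs with the highest mean among those with at least 3 sites, 100 reads and every replicate above the uninduced library. Their means ran from 28.6% to 47.1%, and 16 of them had 0 edited reads in the uninduced library. The median transcript of the 25 was 4251 nt, against 2896 nt over all the RNAs, and the median depth was 19.5 reads per site, against 37.9. These levels and their order against the uninduced library chose the RNAs and are a description, with no test.

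CG14803 (X, 1868870 to 1872408) headed the list at 53.4%, 42.6% and 45.5% in Schneider's, against 20% in the uninduced library. Its uninduced value came from 1 of its 5 sites, at G in all 8 uninduced and all 19 Schneider's reads, and without that site the Schneider's mean was 33.9%. CG10631 (2L, 19742817 to 19756904) followed at 43.7%, 49.3% and 30.03%, against 0 edited of 32 reads in the uninduced library. All 10 sites of CG10631 lay in coding exons (57 of 124 reads edited), as did 88.2% of the sites of all the RNAs. The uninduced depth of 32 reads allows a share of up to 9.38%, still under each Schneider's value.

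The 25 included RNAs of several kinds of protein. Vps13B, a lipid-transfer protein of the endomembrane system, had 28.1%, 39.6% and 34.0% in Schneider's, against 0 edited of 35 reads in uninduced cells. Axn, the Axin scaffold of the beta-catenin destruction complex, had 34.2%, 33.5% and 27.7%, against 2.50%. trol, which encodes the basement membrane proteoglycan perlecan, had 30.7%, 29.3% and 33.9%, against 0 edited of 56 reads. Of these 3, Vps13B varied most between replicates.

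RecQ5, a DNA helicase, had 23.8%, 40.6% and 35.4% in Schneider's, against 1.52% in the uninduced library. Ask1, a MAP kinase kinase kinase of the stress response, had 37.7%, 44.4% and 15.6%, against 0 edited of 32 reads, so its replicates differed among themselves by more than those of most RNAs, whose median SD was 2.43 percentage points. CG17698 was the least even of the 25, at 26.7%, 22.9% and 58.5%, against 0 edited of 22 reads. egl, whose product Egalitarian links localised mRNAs to dynein, had 37.2%, 20.6% and 30.8%, against 0 edited of 39 reads.

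The most evenly measured of the 25 was p120ctn, which encodes the catenin that binds the juxtamembrane part of E-cadherin. It had 31.1%, 28.5% and 28.8% in Schneider's (29.5% ± 1.41, SD, n = 3), against 0 edited of 116 reads in the uninduced library, which allows up to 2.59%. Its 16 sites, all in coding exons on 2R (gene at 4595288 to 4609492) like 88.2% of the sites of all the RNAs, were far from uniform. The most edited site had 13 of 18, 11 of 14 and 8 of 11 reads in the 3 replicates, or 74.4% pooled, while the least edited had 1 edited read in 30, or 3.33%. A single high site thus did not carry the RNA, and its called adenosines differed widely.

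For 9 of the 25 the uninduced library held an edited read, and in some of these 1 site fully at G raised the level in both conditions. Cortactin, an activator of Arp2/3-driven actin branching, had 32.5%, 37.0% and 33.2% in Schneider's, against 20% in uninduced cells. One of its 5 sites was G in all 16 reads of the Schneider's libraries and in all 7 of the uninduced library, and without it the mean was 17.8% (quasi-binomial adjusted p = 0.378 with all sites). Crtc, a CREB coactivator, likewise had 36.7%, 28.2% and 21.7%, against 14.3%, and averaged 17.02% without the site edited in uninduced cells. For 1 of the 25 the deposited uninduced frequency, 16.7%, could not be recomputed, since 0 of its 34 uninduced reads were edited. Its Schneider's mean was not recovered either, at 28.6% as deposited and 14.4% on the recount (22 of 148 reads edited). On the recount this RNA would not have been among the 25. It was 1 of 5 genes for which the table and the recount differed, CG4598 being another. When all sites edited in the uninduced library were left out, 19 of the 25 were again among the 25 highest. The RNA at 14.4% on the recount was not among those 19.

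Among deeply covered RNAs, with 500 or more reads in Schneider's, the highest levels were lower and steadier. This cut was set after the data were seen. As above, entry also required at least 3 sites and every replicate above the uninduced library. The 25 most edited of them had means from 20.4% to 29.5% and a median of 23 sites and 795 reads. Only p120ctn was shared with the 25 above. Second was puf, which encodes a large ubiquitin-specific protease, with 26.2%, 27.3% and 30.1% in Schneider's over 46 sites, against 0.167% in uninduced cells (1 edited of 279 reads). Vps13, a paralogue of Vps13B, had 26.4%, 24.7% and 31.4%, against 1.5%.

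pcx, which encodes the membrane protein Pecanex needed in Notch signalling, was among the most even, at 25.2%, 25.2% and 25.6% over 40 sites, against 1.56% in uninduced cells. Eps-15, an endocytic adaptor, had 24.9%, 26.1% and 24.4%, against 0 edited of 160 reads. kst, the heavy beta-spectrin of the apical cortex, had 21.9%, 22.2% and 20.3%, against 2.52%. lva, the golgin Lava lamp, averaged 22.5% ± 3.18 in Schneider's, against 2.17%. Taf1, the largest TFIID subunit, averaged 23.1% ± 3.67 in Schneider's, against 0.521%. Sos, the Ras exchange factor, averaged 22.2% ± 3.51, against 0.317%.

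A few RNAs of this depth had a marked uninduced level or fell when sites edited in uninduced cells were left out. Gug had 16.5%, 25.2% and 26.8% in Schneider's, against 8.33% in uninduced cells (10 edited of 146 reads), and averaged 15.8% without its 2 such sites. Hrb87F, an hnRNP of the A/B type, had 21.9%, 21.5% and 21.9% in Schneider's, against 14.7% in uninduced cells, and the mean was 10.4% without its 2 sites edited there. Over all its reads, however, 112 of 799 were edited in Schneider's and 7 of 285 in the uninduced library, and 6 of those 7 came from a single site that was G in all 6 of its uninduced and all 24 of its Schneider's reads. sesB, the mitochondrial ADP/ATP carrier, had 23.1%, 20.2% and 22.4% in Schneider's, against 4.97%, with 35 edited of 502 uninduced reads. Cam, calmodulin, had 30.1%, 26.7% and 20.9%, against a low 1.00%, but averaged 14.7% without its 3 sites edited in uninduced cells.

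**Figure D2:**
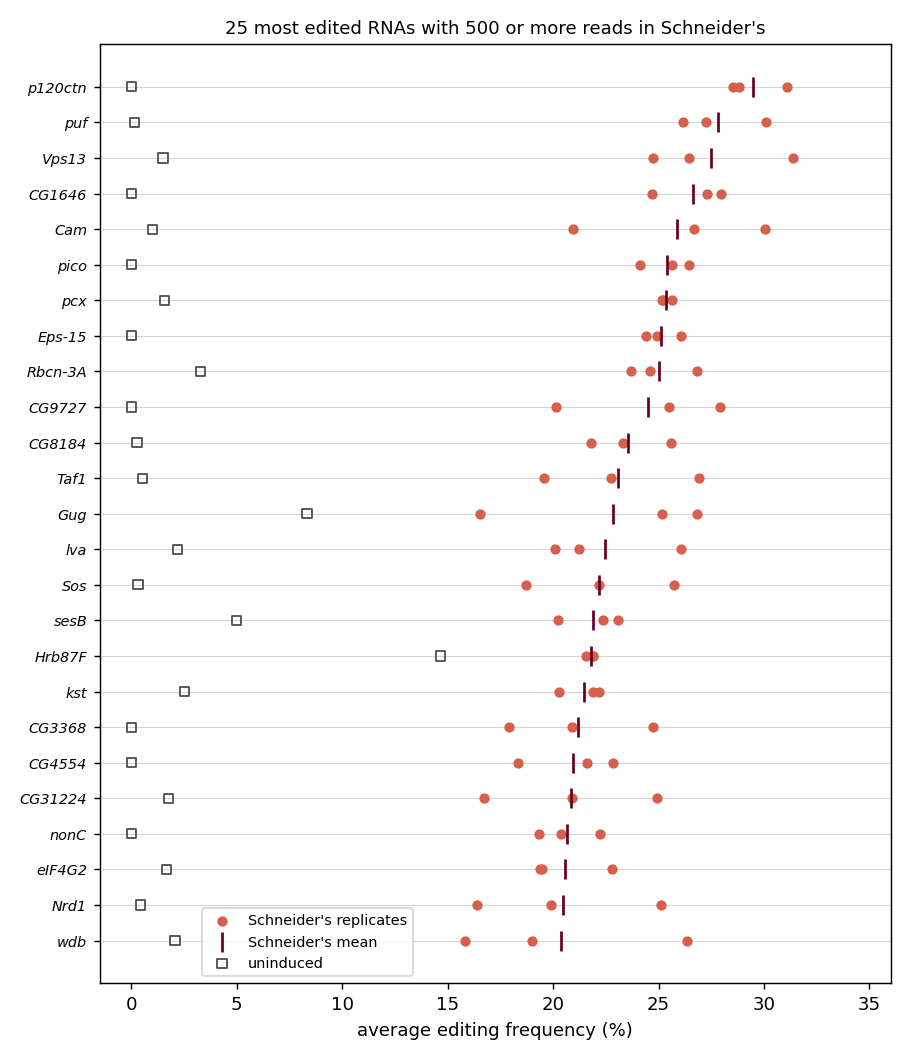
Average editing frequency (x axis, percent) of the 25 most edited RNAs with 500 or more reads in Schneider's, with the 3 Schneider's replicates as filled points, their mean as a bar and the single uninduced library as an open square. Every replicate lying above the uninduced square was a condition of entry for the 25. Hrb87F, at 14.7%, has the highest uninduced value among them.

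Depth and length moved with the level. Among the 676 RNAs with the fewest reads per site (6.88 to 26.1 over the 3 replicates) the median frequency was 14.01% in Schneider's, and among the 676 with the most (65 to 470.5) it was 4.82%, the uninduced median being 0 in both. Across the RNAs the Spearman correlation between the level and reads per site was -0.49, and between the level and transcript length 0.51 over the 2676 RNAs found in the annotation. The 669 shortest transcripts, up to 1862 nt, had a median of 4.41% and the 669 longest, from 4658 nt, one of 13.6%. The shortest transcripts also had the most reads per site (median 76.3, against 27.4 for the longest). A site of few reads needs a larger share of G to reach the call quality, so depth enters the choice of sites, and the part of depth and length in the order of the RNAs was not tested.

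**Figure D3:**
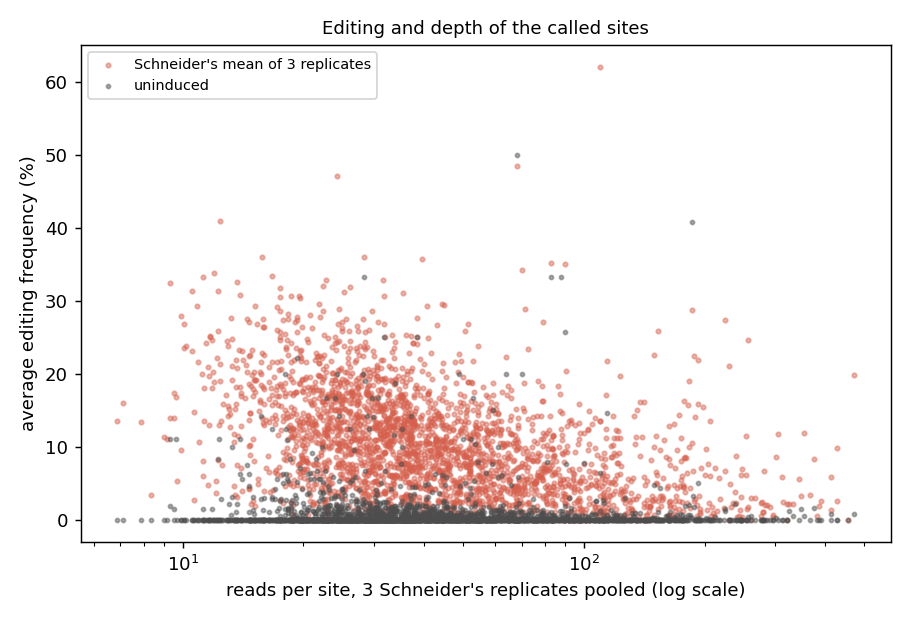
Average editing frequency of each of the 2703 RNAs (y axis, percent) against reads per site in the 3 pooled Schneider's libraries (x axis, log scale), with the Schneider's mean in red and the uninduced value in grey. The red points sink toward the right, with a Spearman correlation of -0.49, and most grey points lie at 0.

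At the other end, 56 RNAs lacked edited reads in all 3 Schneider's replicates, and 53 of these lacked them in the uninduced library too. They had 71 to 461 reads in the pooled Schneider's libraries, and 29 of them had a single site. Of the 56, 38 had 100 or more reads, 11 had 200 or more and 3 had 300 or more, among 2444, 1714 and 1249 RNAs of that depth. Their median transcript was 1116 nt. The count of 56 was 29 at a call quality above 1000 and 87 to 98 when 1 replicate was left out. With no edited read, 3 reads of the total are the upper limit, which covers counting error only, so these RNAs were unedited as far as 0.651% to 4.23% allowed. A site without G in the 4 libraries was called because another library carried G. Edited reads of these RNAs in arsenite or brain libraries thus follow largely from the choice of sites.

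PCNA, the sliding clamp of DNA replication, was the deepest. Its 2 coding sites had 165, 131 and 165 reads in the Schneider's replicates and 147 in the uninduced library, with 0 edited in all 4, which allows up to 0.651% in Schneider's and 2.04% in uninduced cells. In the arsenite libraries of the same clone 24 of 500 reads at these sites were edited. mt:ATPase6 and mt:CoIII, 2 subunits encoded in the mitochondrial genome, had 455 and 261 reads in Schneider's and 169 and 94 in uninduced cells, 0 of them edited. At the single called site of each, 382 of 384 and 340 of 343 brain reads carried G, so these 2 entries differ between the S2 and brain libraries rather than with induction.

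Of the 33 RNAs in the respiratory chain and ATP synthase list, which left out mt:ATPase6 and mt:CoIII, 3 had no edited read in Schneider's, beside 56 of all 2703 RNAs. COX8, a cytochrome c oxidase subunit, had 320 Schneider's and 122 uninduced reads, 0 of them edited. ND-B22 and ND-B18, subunits of complex I, had 0 edited of 276 and of 155 reads in Schneider's, and 0 of 83 and of 55 in uninduced cells. ND-B22 had 50 edited of 343 reads in arsenite, a share of 14.6%, beside its limit of 1.09% in Schneider's. As said above, such arsenite reads follow largely from the choice of sites. Sod1, the copper-zinc superoxide dismutase, had 0 edited of 176 Schneider's and 44 uninduced reads, and Prosbeta4, a proteasome core subunit, 0 of 149 and of 40.

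The other coding RNAs among the 20 were of varied kinds. Syb, a synaptobrevin of vesicle fusion, had 0 edited of 252 Schneider's and 89 uninduced reads. Rac2, a small GTPase of the actin cytoskeleton, had 0 of 201 and of 56, and Arpc4, an Arp2/3 subunit, 0 of 192 and of 71. Pgd, an enzyme of the pentose phosphate pathway, had 0 of 191 and of 56, and san, an N-terminal acetyltransferase, 0 of 151 and of 60. roh, CG8149, CG6084 and CG5554 had 0 edited of 176 to 246 Schneider's reads each. CG33229 was alone among the 20 in having an uninduced edited read, 1 of 108, against 0 of 279 in Schneider's.

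Non-coding RNAs were also among the 20. Hsromega, the long nuclear RNA that organises omega speckles, had 0 edited of 179 Schneider's and 57 uninduced reads over 6 sites. CR45926 had 0 of 154 and of 41 at its single site, where 0 of 132 arsenite reads and 105 of 198 brain reads carried G. Of the 20 RNAs, 18 had an edited read in the arsenite libraries and 13 in the brain libraries, counts that the choice of sites largely sets. Only mt:CoIII and CR45926 had none in arsenite.

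**Figure D4:**
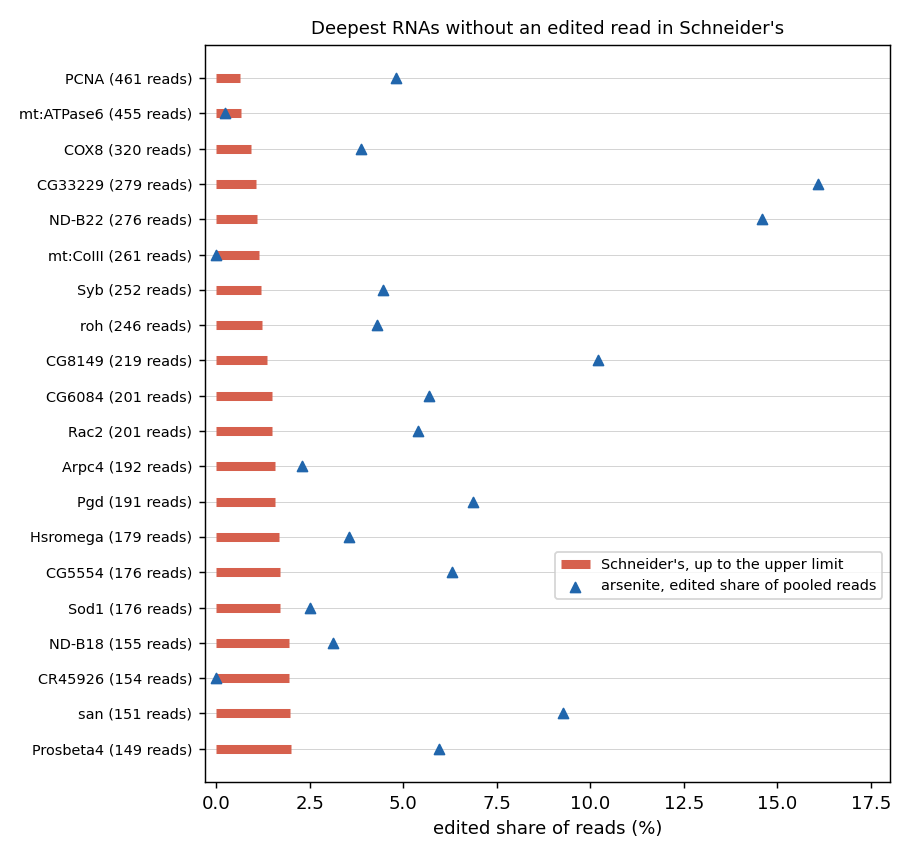
The 20 deepest RNAs without an edited read in Schneider's, with reads pooled over 3 replicates in brackets. Bars run from 0 to the upper limit that 0 edited reads allow in Schneider's (x axis, percent), and triangles give the edited share of the pooled arsenite reads, which reaches 16.1% for CG33229 and lies at 0 for mt:CoIII and CR45926.

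RNAs with more than 500 reads came close to zero without reaching it. UQCR-Q, a subunit of complex III, had 887 Schneider's reads with 3 edited and 290 uninduced reads with 0, the lowest share at this depth. Cp1, a cysteine protease, had 8 of 1170 and 0 of 362. His2Av, a histone variant, had 13 of 857 and 0 of 290, and Nop56, a nucleolar RNP protein, 26 of 1906 and 1 of 630. The 20 lowest RNAs of this depth had a median transcript of 1704 nt and 147 reads per site.

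In the uninduced library 1873 RNAs had no edited read. Of the 27852 sites, 1263 had at least 1, and 27 sites in 27 RNAs were edited in 90% or more of at least 10 uninduced reads. At these 27 the Schneider's libraries held 391, 349 and 364 edited reads and the uninduced library 402 of all its 2030 edited reads. Without them 9.47% ± 0.0778 of reads were edited in Schneider's (SD, n = 3) and 0.426% in uninduced cells. RNA reads alone do not tell a position at which the genome of the clone differs from the reference from an edited one.

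The 10 RNAs with the highest uninduced frequency had 1 site each with edited uninduced reads, and in 3 of them it was 1 of these 27. CG15715 had 48.1%, 47.6% and 50% in Schneider's, against 50% in uninduced cells, with 1 of its 2 sites at G in 25 of 25 uninduced reads and the other unedited. Rala, a small GTPase of the exocyst, had 25% in each of the 4 libraries. YT521-B, the nuclear reader of m6A, had 22.9%, 22.6% and 22.6%, against 20%, and 3.34% without the site. Dip-C, Pop2 (a CCR4-NOT deadenylase) and wash (an activator of Arp2/3 on endosomes) averaged 35.99%, 30.7% and 25.8% in Schneider's, against 33.3%, 25% and 22.2%. In these the induced and uninduced values were near each other or overlapped.

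Ubi-p63E, a polyubiquitin gene, had lower values after induction in all 3 replicates, at 32.4%, 29.3% and 24.6% in Schneider's and 40.9% in uninduced cells. It rested on 1 site with 18 of 44 uninduced reads edited, and the quasi-binomial adjusted p was 0.248. Whether reads of its repeated units or of other ubiquitin genes were misplaced at this site was not tested. CG10166 also had a single site, at 30%, 48.1% and 27.3% in Schneider's, against 25.8%. The other 8 RNAs with every replicate below the uninduced library had 1 or 2 edited uninduced reads each, among them Smn, aurA, GstD5 and Pal1.

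The gene lists differed in level. Chaperones and heat shock proteins had the lowest median of replicate means, 2.77% over 22 RNAs, 21 of them below the median of all RNAs (9.49%), although in replicate 1 and in edited share of reads proteasome subunits were lower (2.53% against 3.51%, and 4.47% against 5.16%). Hsp83, the fly Hsp90, had 488 edited of 6319 reads and averaged 8.61% ± 0.826 in Schneider's (SD, n = 3), against 0.218% in uninduced cells. Hsc70-4, the constitutive Hsp70, was the highest of the list at 11.2% ± 1.79, against 0.141%, and the chaperonin subunit CCT2 was near the bottom at 1.396% ± 0.822, against 0. None of the 22 passed limma and the quasi-binomial model called 15, all higher, beside 56.4% of all RNAs tested with it (38.4% of all genes). That share is the background for the calls of every list.

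Proteasome subunits had a median of 3.84% over 28 RNAs, 27 below the overall median, and respiratory chain and ATP synthase subunits 4.46% over 33, of which 28 were below. Single RNAs departed from their list. Prosbeta7, a subunit of the core particle, had 23.0%, 24.6% and 26.4% in Schneider's at its single site, against 0 edited of 40 reads, whereas Prosbeta4 and Prosalpha5 had no edited read in any of these libraries. In the respiratory list UQCR-C2 averaged 13.5% ± 3.81 in Schneider's, against 0 in uninduced cells. The quasi-binomial model called 9 of the 28 and 14 of the 33, all higher, beside the 56.4%.

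Cytosolic ribosomal proteins, short and abundant, had a median of 5.61% over 40 RNAs, and 30 were below the overall median. RpLP0, the stalk protein, had 19.3%, 32.8% and 30.01% in Schneider's, against 1.14% in uninduced cells, while RpL7A averaged 1.26% ± 0.573, against 0. RpL4 averaged 13.1% ± 0.764 over 1009 reads, against 0.427%. The quasi-binomial model called 18 of the 40, beside the 56.4%. Mitochondrial ribosomal proteins had a median of 6.67% over 17 RNAs and aminoacyl-tRNA synthetases 7.76% over 17, with TyrRS highest at 27.7% ± 8.24 in Schneider's and 0 in uninduced cells.

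Translation initiation and elongation factors had a median of 9.14% over 32 RNAs, near that of all RNAs. eEF1alpha1, which delivers aminoacyl-tRNA to the ribosome, had 19.6%, 18.9% and 20.9% in Schneider's, against 0.779% in uninduced cells, with 856 of 4705 reads edited. eEF2, which moves the ribosome along, had only 348 of 5679 reads edited and averaged 6.12% ± 0.306, against 0. The Schneider's replicates of the 2 factors did not overlap, at similar depth. eIF2alpha and eIF2beta averaged 1.74% ± 0.768 and 1.55% ± 2.69 in Schneider's, against 0.

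Chromatin and transcription regulators had the highest median of replicate means, 11.3% over 55 RNAs. Every replicate was above the uninduced library in 54 of them, beside 85.2% of all RNAs and 96.4% of the 669 longest transcripts. The quasi-binomial model called 43, beside the 56.4%. In replicate 1 the gene list of hemocyte markers, longer than the 9 above, had a higher median over 10 RNAs (10.8%, against 10.6%). The FMRP targets below had a higher edited share of reads (11.3%, against 11.1%). nej, the histone acetyltransferase CBP, had 27.3%, 28.7% and 27.5% in Schneider's, against 5.56% in uninduced cells, and trx, a histone methyltransferase, averaged 19.3% ± 1.00, against 0.735%. HP1b, with a single site, averaged 1.08% ± 1.86, against 0. Kinases and phosphatases had a median of 11.2% over 35 RNAs when replicates were averaged first, but medians of 7.58%, 9.65% and 8.49% within the replicates, against 9.04%, 9.02% and 9.38% over all RNAs, so their place above or below the median of all RNAs depended on the order of averaging. Vesicle trafficking and ER RNAs had a median of 8.55% over 65, of which 35 were below the overall median, actin, tubulin and their partners 9.33% over 31, and cell cycle and replication RNAs 10.1% over 58. The cell cycle list held both ends of the scale, since Bub3, a spindle checkpoint protein, had 65.6%, 60% and 60.6% in Schneider's at its single site, against 2 edited of 31 reads in uninduced cells, and PCNA had none.

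RNA granule and RNA-binding proteins (43 RNAs) had a median of 9.26% and 31 quasi-binomial calls, beside the 56.4%. Atx2, a translational regulator found in granules, averaged 24.3% ± 3.03 in Schneider's, against 6.67% in uninduced cells. The 13 RNAs of the list of FMRP targets known from other work had a median of 8.15%, below that of all RNAs, but 11.3% ± 0.677 of their pooled reads were edited in Schneider's, against 9.55% over all RNAs, so the direction depended on the weighting. poe, a calmodulin-binding protein, had 22.4%, 19.7% and 18.1% in Schneider's over 103 sites, against 0.809% in uninduced cells, and Dhc64C, the dynein heavy chain, averaged 19.7% ± 0.860, against 0.481%. chic, the fly profilin, averaged 2.04% ± 0.817, against 0.

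The lists differed in depth as well, with a median of 131 reads per site for chaperones, 196 for cytosolic ribosomal proteins and 113 for proteasome subunits, against 32.4 for chromatin regulators. Their median transcripts were 2141, 982.5, 1398.5 and 5021 nt. The part of depth and length in these medians was not tested.

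**Figure D5:**
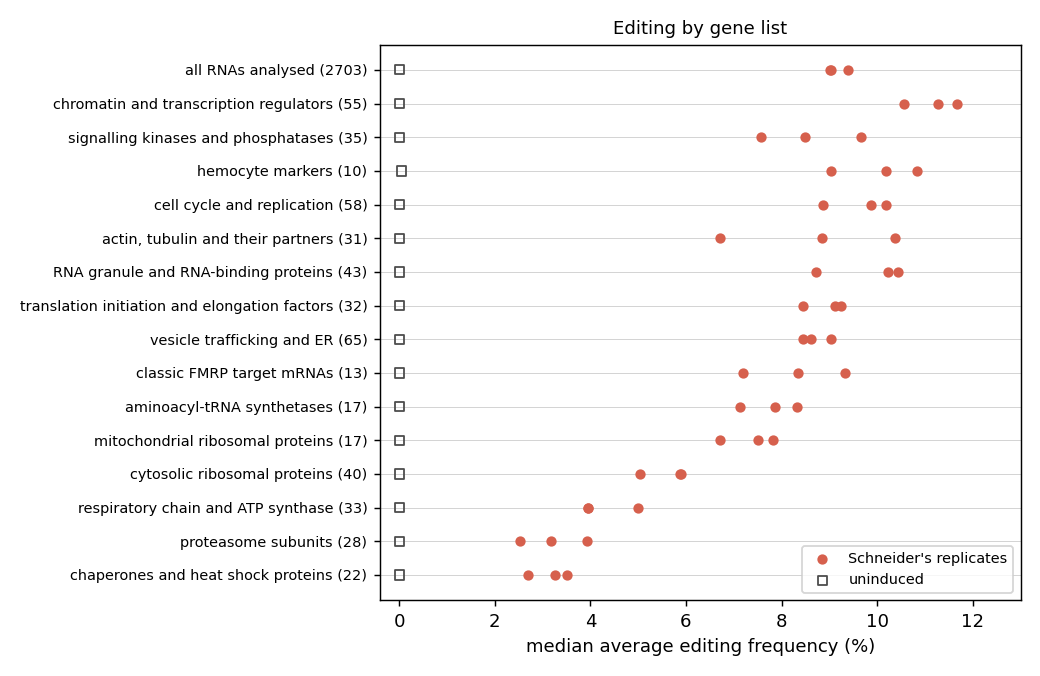
Median average editing frequency (x axis, percent) over the RNAs of each gene list, the number of RNAs in brackets, with 1 filled point per Schneider's replicate and an open square for the uninduced library. Chromatin and transcription regulators lie highest in replicates 2 and 3, chaperones and proteasome subunits lowest in all 3 replicates, and every uninduced median is at or near 0.

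The edited transcripts of the tools themselves, Adar and Fmr1, were not extreme. Adar had 10.1%, 9.77% and 11.8% in Schneider's over 31 sites, against 0.190% in the uninduced library. Fmr1 had 8.47%, 7.18% and 9.98% over 22 sites, against 0 edited of 406 reads. Reads of the transgene and of the endogenous genes cannot be told apart at these sites.

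Of the RNAs that the study followed by microscopy, kermit had too few reads for the set. Rack1, a ribosomal scaffold, had 8.76%, 7.06% and 9.56% in Schneider's, against 0.154% in uninduced cells. row, a zinc finger protein, had 11.4%, 8.26% and 8.38%, against 0.617% (quasi-binomial adjusted p = 0.0052). These 2 were near the median of all RNAs. Khc, the kinesin heavy chain, had 1.87%, 4.81% and 0 in Schneider's, against 0 edited of 149 reads, and cbt 1.14%, 2.42% and 5.24%, against 0 of 214. Cyt-c-p, cytochrome c, had 1.87%, 1.5% and 0.889%, against 0 of 191, red averaged 3.71% ± 3.71, against 0 of 51, and geminin 1.85% ± 3.21, against 0 of 34. For these 5 the quasi-binomial adjusted p lay above the threshold, from 0.0661 to 0.426.

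At the level of sites, 10691 had 10 or more reads in each of the 4 libraries. An edited read was present at 59.2%, 57.7% and 59.9% of them in the Schneider's replicates, against 5.91% in the uninduced library. With at least 2 edited reads required the shares were 36.9% ± 1.24 in Schneider's and 0.655% in uninduced cells. Most sites were edited weakly. Among the 7462 sites with 50 or more pooled Schneider's reads and no edited read in uninduced cells, the median share was 3.39%, 1421 had none, 642 had 20% or more and 48 had 50% or more.

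The 10 most edited of these sites all lay in coding exons, as did 88.2% of all sites of the RNAs. The highest was in CG2316 (chromosome 4, position 186600, BDGP6), with 12 of 18, 16 of 17 and 16 of 22 reads edited in Schneider's, against 0 of 4 in the uninduced library, a depth that allows up to 75%. PAPLA1, a phospholipase of the early secretory pathway, had 17 of 19, 16 of 25 and 17 of 22 (2L, 8137881), against 0 of 11. The best covered of them was in Hsc70-4 (3R, 15245630), with 37 of 62, 28 of 43 and 35 of 55 reads edited in Schneider's, 62.5% pooled, against 0 of 29 in uninduced cells. The other 11 sites of Hsc70-4 had between 0.606% and 26.2% edited, so 1 adenosine stood far above the rest of its RNA. The others were in Hcf, CG8531, Chc (clathrin heavy chain), CG9776, sti (citron kinase), GCS2beta and Not3, at 60.3% to 67.3%.

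The edited share differed with the neighbouring bases in each replicate. Sites with T before and G after the adenosine in the transcript, written as DNA, made up 12.3% of the sites and had 11.6%, 11.8% and 11.8% of reads edited in Schneider's, against 0.684% in uninduced cells. All other sites had 9.27%, 9.16% and 9.34% in Schneider's, against 0.512%. The difference was 2.37, 2.69 and 2.47 percentage points in Schneider's and 0.172 in uninduced cells. T on the 5' side gave 11.3% ± 0.0281 in Schneider's and G there 7.11% ± 0.134, while G on the 3' side, present at 50.1% of sites, gave 9.31% ± 0.0549. The base on the 5' side thus separated the sites more than that on the 3' side in all 3 replicates. In uninduced cells T and G on the 5' side gave 0.623% and 1.20%, the reverse order, and G on the 3' side 0.435%. The part of depth and of the choice of sites in these shares was not tested.

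Within transcripts, sites in 3' UTRs had 12.5% ± 0.226 of reads edited in Schneider's (1697 sites), coding sites 9.57% ± 0.0966 (24569 sites) and sites in 5' UTRs 4.08% ± 0.184 (1157 sites). The uninduced shares were 0.902%, 0.485% and 0.726%. The 3 classes did not overlap between replicates of Schneider's, and the order of the uninduced shares was another one. Depth differs between classes and its part was not tested.

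Other base changes in the same RNAs served as a background. C-to-T positions had 31.9% ± 0.484 of reads with the alternative base in Schneider's, against 31.1% in uninduced cells. A-to-C positions, the second most numerous change with 17356, had 8.76% ± 0.0515, against 8.80%, and T-to-G positions 4.97% ± 0.144, against 5.04%. A-to-G stood apart from these, with 9.55% ± 0.0759 in Schneider's and 0.531% in uninduced cells. T-to-C, the same change read from the other strand, had 131 positions with 22.02% ± 1.16 in Schneider's, against 19.7%.

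RNAs just inside and outside the depth condition were alike in level. The 50 RNAs whose lowest library had 20 reads had a median of 9.49% in Schneider's and 0 in uninduced cells, and the 51 whose lowest library had 19 reads had 8.81% and 0.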

How the data were processed

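VASA-seq libraries, which cover whole transcripts, were made from S2 cells. Tools named in the submitters' processing notes are cutadapt 3.2, BWA 0.7.17-r1188, STARsolo 2.7.7a, UMI-tools 1.1.1 and GATK 4.1.9.0, with the BDGP6 genome. The deposited editing frequencies are fractions, per gene the mean over A-to-G sites of edited over total reads, which the authors computed from sites with a call quality above 250 and an alternative allele fraction below 0.95. Reads per site come from the deposited variant table, in which strand-specific reads with the reference and alternative base are other values listed per library. Recounting gave the deposited frequency within 1e-06 in all 14 bulk samples for 4998 of 5003 genes. In the variant table, 10 libraries that matched no sample label were not used. Signed differences are Schneider's minus uninduced.

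The main test was limma 3.58.1 (lmFit, eBayes, R 4.3.3) on untransformed frequencies over the 4077 genes edited in 1 or more of the 4 libraries, with Benjamini-Hochberg adjustment. The uninduced library was assumed to vary like the Schneider's replicates, which left 2 residual degrees of freedom and a prior of 1.14. The quasi-binomial model used a dispersion prior from the 2290 genes with 10 or more edited reads in Schneider's. This restriction was made after a test on simulated data, drawn with counting error only, recovered nothing with a prior from all genes. Fisher's exact test was added later. Other settings changed the scale, weights, call quality, depth and replicates. Upper limits use 3 reads. Exact intervals are at 95%. Region and length come from a later Ensembl release of the same assembly, in which 27 of the RNAs were not found. A genome sequence was not used here.

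Named RNAs followed a fixed rule: the 25 highest in Schneider's, the 20 deepest unedited, the 10 highest in uninduced cells with 3 or more edited reads, the 10 most edited sites with 50 or more reads, Fmr1, Adar, RNAs the study followed, and the extremes of each list. The RNAs, lists and rules were chosen with earlier results of these data known. Python 3.11.15 was used with scipy 1.17.1, numpy 2.4.6, matplotlib 3.10.9 and pandas 2.3.3.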

Additional observations from a re-analysis of the deposited data

How the results depend on the processing

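The number of RNAs called higher in Schneider's than in uninduced cells, 0 in the limma fit as planned, depended on the test. Among the RNAs with 20 or more reads it was 1157 on an arcsine square root scale, 615 when only these RNAs were tested and 238 at an unadjusted p under 0.01. It was 430 with reads as weights, 1494 in the quasi-binomial model, 975 in that model with its prior from all genes, and 1597 with Fisher's exact test. The prior behind the 1494 was restricted after a test on data simulated from these depths and shares, and Fisher's exact test was added after seeing the data. Over all genes the count was 1 as planned, and 1375, 615, 286, 446, 1548, 980 and 1667 under the same settings, 2 with sites of 5 or more reads, and 0 with all 7 S2 samples in the fit or a call quality above 1000. Leaving out 1 Schneider's replicate at a time gave 0 in each case for both counts. Pooled reads, a trend in the prior, a call quality above 100 and leaving out sites edited in uninduced cells left both counts within 1.5 times. When only these RNAs were tested, 2650 genes entered the fit, against 4077, and its prior degrees of freedom were 2.17, against 1.14. The cause of the change in count was not tested for any setting.

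The difference in mean frequency, 9.63 percentage points, was 9.29 at a call quality above 100, 11.7 above 1000, 9.79 with 10 or more reads for entry and 9.31 with sites of 5 or more reads. The difference in edited share of reads, 9.02 percentage points, was 8.45 at a call quality above 100, 11.5 above 1000 and 8.72 without sites edited in uninduced cells. The 56 unedited RNAs became 29 at a call quality above 1000, 132 and 13 with 10 and 50 reads for entry, 123 with at most 1 edited read, and 87 to 98 without 1 replicate. The difference in sites with an edited read, 53.0 percentage points, was 55.6 with 20 or more reads and 36.2 with at least 2 edited reads. The difference by neighbouring bases, 2.51 percentage points, was 1.90 at sites with 10 or more reads and 2.87 as a mean over sites. With reads pooled over sites, Dip-C and wash turned to -10.3 and -9.30 percentage points, and without 1 replicate wash ran from -3.13 to 12.2. No direction was reversed under the other alternatives for the other named RNAs of these lists. No paired analysis was possible because the uninduced condition has a single library.

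Depth limits what can be said of the unedited RNAs and of the uninduced library, since 0 edited of 20 uninduced reads allows a share of up to 15%.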
